A study of Mus musculus with 10 samples.

Results

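AP-1 is a transcription factor made of pairs of basic leucine zipper proteins, and the transcripts measured here are those of its FOS and JUN subunits and of the related ATF3. Its 8 members were taken by gene symbol: Fos, Fosb, Fosl1, Fosl2, Jun, Junb, Jund and Atf3. They are 8 of the 14849 rows of the deposited table that name a gene, and all 8 were among the 12842 rows that reached 1 RPKM in at least 2 libraries and were tested. RPKM is the number of reads scaled to the length of the transcript and to the mapped reads of the library. Junb has another row at 0.112 to 0.618 RPKM, which was not used. Chromosomes are given from RefSeq and identifiers from the deposited table. Fos lies on chromosome 12 (ENSMUSG00000021250), Fosb on chromosome 7 (ENSMUSG00000003545), Fosl1 on chromosome 19 (ENSMUSG00000024912) and Fosl2 on chromosome 5 (ENSMUSG00000029135). Jun lies on chromosome 4 (ENSMUSG00000052684), Junb (ENSMUSG00000052837) and Jund (ENSMUSG00000071076) on chromosome 8, and Atf3 on chromosome 1 (ENSMUSG00000026628).

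The cells were NIH3T3, an established line of mouse embryo fibroblasts, sequenced as 10 libraries. There were 4 clones stably overexpressing FOXP2, a forkhead transcription factor, and 4 clones stably overexpressing FOXP2-CPED1, named in the series as an arrangement. The controls were 1 library of cells stably carrying the vector and 1 of parental cells. The clones of a construct are described as independent, each with 1 library, so their spread is the spread between clones. Nothing says that the vector cells are a clone, so clonal derivation and construct cannot be told apart against the controls. The sources used here do not give the promoter of the constructs, the species of the introduced sequence or the culture and harvest conditions.

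JUN proteins pair with each other or with FOS proteins, while FOS proteins need a JUN partner to bind the AP-1 site. Fos, Fosb and Junb are immediate-early genes, switched on within minutes by serum and growth factors through the ERK pathway, the serum response factor SRF and CREB-type factors. Fosl1 (FRA-1) and Fosl2 (FRA-2) follow later and their products are longer lived. In fibroblasts AP-1 is known for its part in cell cycle entry, migration and the expression of matrix-degrading enzymes. Atf3 is a stress-induced relative that pairs with JUN proteins. It often acts as a repressor.

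Summed RPKM ran from 794682 to 944602 per library and relative depth, read from the steps between values under 0.3 RPKM, from 0.914 to 1.32 of the parental library. The absolute depth is unknown, so no counting interval is given. In 3 libraries (FOXP2 clones 2 and 4, FOXP2-CPED1 clone 3) the mitochondrially encoded genes were listed at 0, and these are called the libraries lacking mitochondrial values. The mouse Foxp2 row stood at 0.145 to 1.02 RPKM in FOXP2 clones and 0.0674 to 0.33 in FOXP2-CPED1 clones, against 0.0785 in vector and 0.0798 in parental cells, so it gives no check of the overexpression. Spearman correlations between libraries over the tested rows ran from 0.925 to 0.982. Of 9 fibroblast markers, 8 had a row and all 8 reached 1 RPKM. Their summed level was 5945 to 8326 RPKM in FOXP2 clones, 6378 to 8967 in FOXP2-CPED1 clones and 9009 to 9116 in the controls. Of 11 epithelial, endothelial and blood markers, 3 had a row (Cdh1, Krt14 and Cdh5), none above 2.82 RPKM.

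The 150 bases before the start of Fosb, Junb, Fos and Jun are shown because these genes are the classic immediate-early members. Sequences are from RefSeq on GRCm38.p6, which had such a window for 7 of the 8 members. Capitals mark the core of the cAMP response element (CRE), TGACG, the proximal Jun site TGACATCA and the TATA box TATAAA.
Fosb (chr7:19310046-19310195, minus strand): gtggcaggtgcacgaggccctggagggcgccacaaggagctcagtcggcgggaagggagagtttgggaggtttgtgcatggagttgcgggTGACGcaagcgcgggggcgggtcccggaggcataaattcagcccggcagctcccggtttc
Junb (chr8:84978749-84978898, minus strand): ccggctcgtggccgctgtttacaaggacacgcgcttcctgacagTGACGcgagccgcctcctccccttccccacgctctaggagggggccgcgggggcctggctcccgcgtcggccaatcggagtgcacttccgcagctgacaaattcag
Fos (chr12:85473740-85473889, plus strand): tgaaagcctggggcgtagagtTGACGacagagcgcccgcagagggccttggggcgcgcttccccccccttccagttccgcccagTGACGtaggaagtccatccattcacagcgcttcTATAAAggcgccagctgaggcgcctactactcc
Jun (chr4:95052223-95052372, minus strand): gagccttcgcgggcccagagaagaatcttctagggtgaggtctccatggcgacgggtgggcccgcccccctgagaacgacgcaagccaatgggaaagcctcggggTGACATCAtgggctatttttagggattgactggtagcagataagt

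Motifs were searched on both strands in the 250 bases before the start. The CRE core and the Jun site were chosen after these sequences were seen, so their counts are descriptions and no test. The CRE core, TGACG or CGTCA, was in 4 of 7 member windows (Fosb, Junb, Fos and Atf3) and in 17.8% of all 32851 windows. It began 60 bases before the start of Fosb, 106 before that of Junb, and 129 and 66 before that of Fos. The Jun site, TGACATCA or TGATGTCA, was in the Jun window alone of the 7, 45 bases before the start, and in 2.93% of all windows. The TATA box, TATAAA or TTTATA, was in the Fos window, 33 bases before the start, and in 12.4% of all windows. None of the 7 windows held the AP-1 site TGACTCA or TGAGTCA (4.46% of all windows), the full CRE TGACGTCA (1.55%), which contains the core, or the CArG box bound by SRF (1.47%). These are matches of letters in short windows, and sites farther from the start than 250 bases were not searched. Binding was not measured.

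Fosb was the AP-1 gene that stood furthest below the controls. Fosb makes a FOS protein that pairs with JUN proteins, and in neurons it is known for a long-lived truncated form. It fell with FOXP2-CPED1, and over all 8 clones, by the test across all genes, and no other member passed that test in any comparison. Junb was also below both controls in every clone and Jun likewise, by less. Fos, Fosl1, Fosl2 and Atf3 stood below both controls in some clones and above both in others, and Jund lay below the parental library and around the vector library. In RNA from whole cultures, fewer cells with a transcript and less of it per cell cannot be told apart.

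**Figure D1:**
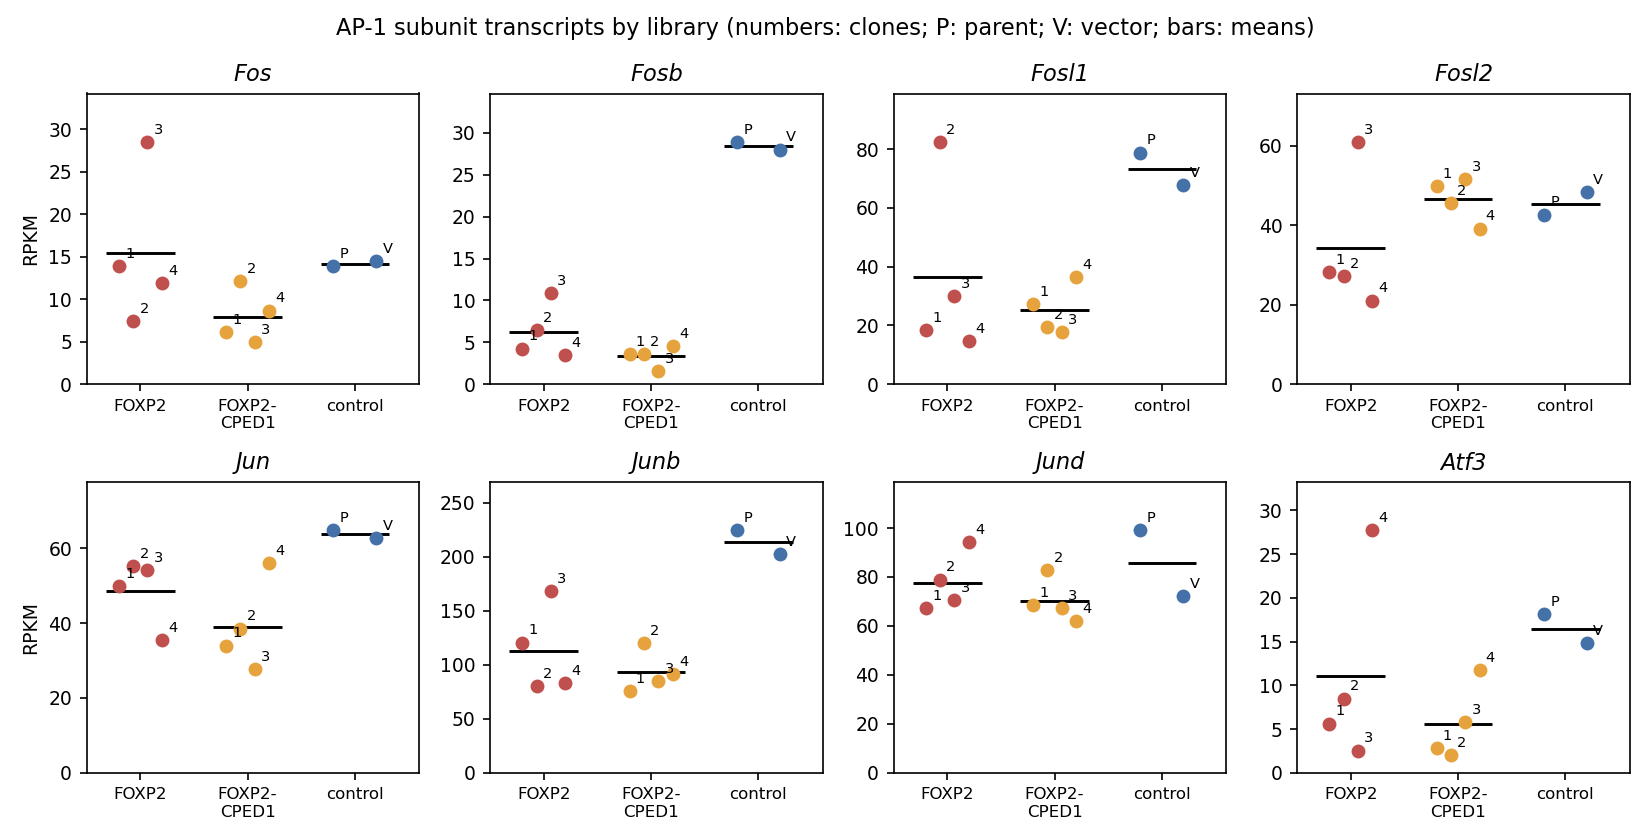
RPKM of the 8 AP-1 subunits in each library, with clone numbers beside the points, P for parent and V for vector; horizontal bars are group means. Fosb, Jun and Junb lie below both controls in all 8 clones, and single FOXP2 clones stand high in Fos (clone 3), Fosl1 (clone 2), Fosl2 (clone 3) and Atf3 (clone 4).

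Fosb stood at 4.26, 6.47, 10.9 and 3.44 RPKM in FOXP2 clones 1 to 4. In FOXP2-CPED1 clones 1 to 4 it stood at 3.57, 3.58, 1.55 and 4.57 RPKM, against 28.0 in vector and 28.9 in parental cells. Every clone was below both controls, by a wide margin, and the ranges of the constructs overlapped. The mean was 6.28 ± 3.36 RPKM with FOXP2 and 3.32 ± 1.27 RPKM with FOXP2-CPED1 (SD, n = 4 each), against 28.5 ± 0.614 RPKM in the controls (n = 2). That is 22.1% of the control mean with FOXP2 and 11.7% with FOXP2-CPED1. On the log2(RPKM + 1) scale, which understates the change of low genes, the difference from control was -2.83 ± 0.40 (SE) with FOXP2-CPED1 (limma adjusted p = 0.0197). With FOXP2 it was -2.12 ± 0.40 and missed the threshold (adjusted p = 0.0664). Over all 8 clones it was -2.48 ± 0.36 (adjusted p = 0.0165).

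The call of Fosb with FOXP2-CPED1 was lost without either control, as were nearly all calls in the table. Such a fit leaves 1 control, so the loss is not particular to Fosb. The log2 difference was -2.81 without the parental library and -2.85 without the vector library. With FOXP2-CPED1 the adjusted p was 0.065 without FOXP2-CPED1 clone 1 and 0.0573 without clone 2. Over all 8 clones the call was likewise lost without either control. The log2 difference there was -2.45 without the parental and -2.50 without the vector library. In FOXP2 clones the difference was called without clone 3, the highest of them (adjusted p = 0.0252). Without the 3 libraries lacking mitochondrial values, Fosb remained called with FOXP2-CPED1 (log2 difference -2.59, adjusted p = 0.0465).

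Fos, the founding member of the family, was not lower in all clones. In FOXP2 clones 1 to 4 it stood at 13.9, 7.43, 28.5 and 11.9 RPKM. In FOXP2-CPED1 clones 1 to 4 it stood at 6.15, 12.1, 4.92 and 8.65 RPKM, against 14.5 in vector and 13.9 in parental cells. FOXP2 clone 3 was above both controls, while the 4 FOXP2-CPED1 clones all lay below them. On the log2 scale Fos differed by -0.04 ± 0.44 with FOXP2 (adjusted p = 0.991) and -0.83 ± 0.44 with FOXP2-CPED1 (adjusted p = 0.745). With FOXP2 the sign turned without clone 2 (0.23), without clone 4 (0.02) and in the fit that omits the 3 libraries lacking mitochondrial values (0.46).

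Fosl1 is an AP-1 subunit that accumulates in migrating and transformed cells. It stood at 18.3, 82.4, 30.0 and 14.7 RPKM in FOXP2 clones 1 to 4. FOXP2-CPED1 clones 1 to 4 had 27.3, 19.5, 17.8 and 36.4 RPKM, against 67.6 in vector and 78.8 in parental cells. FOXP2 clone 2 was thus above both controls and the other 7 clones were below both. The log2 difference was -1.31 ± 0.56 with FOXP2 (adjusted p = 0.553) and -1.55 ± 0.56 with FOXP2-CPED1 (adjusted p = 0.525). Without FOXP2 clone 2 the difference in FOXP2 clones was -1.81 and still missed the threshold (adjusted p = 0.0857).

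Fosl2 makes a FOS protein that can repress as well as activate. It stood at 28.1, 27.2, 60.9 and 21.0 RPKM in FOXP2 clones 1 to 4. FOXP2-CPED1 clones 1 to 4 had 49.8, 45.6, 51.6 and 39.1 RPKM, against 48.2 in vector and 42.6 in parental cells. The FOXP2-CPED1 clones straddled the controls, while 3 of 4 FOXP2 clones were below them and clone 3 above. Fosl2 differed from the controls on the log2 scale by -0.51 ± 0.34 with FOXP2 (adjusted p = 0.747) and 0.03 ± 0.34 with FOXP2-CPED1 (adjusted p = 0.995). Without FOXP2 clone 3 it was -0.82 in FOXP2 clones (adjusted p = 0.123), and without FOXP2 clone 4 it was -0.32.

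Among JUN genes, Junb was the most abundant AP-1 transcript in the controls. Its product pairs with FOS proteins and is a weaker activator than JUN on many targets. It stood at 120.5, 80.5, 168.5 and 83.3 RPKM in FOXP2 clones 1 to 4. FOXP2-CPED1 clones 1 to 4 had 75.6, 120.3, 85.1 and 91.4 RPKM, against 202.4 in vector and 224.5 in parental cells. All 8 clones were below both controls. The mean was 113.2 ± 41.1 RPKM with FOXP2 and 93.1 ± 19.3 RPKM with FOXP2-CPED1 (SD, n = 4 each), against 213.5 ± 15.6 RPKM in the controls (n = 2). Junb differed from the controls on the log2 scale by -0.97 ± 0.29 with FOXP2 (adjusted p = 0.305), -1.21 ± 0.29 with FOXP2-CPED1 (adjusted p = 0.191) and -1.09 ± 0.27 over all 8 clones (adjusted p = 0.151). None passed the threshold. Without FOXP2 clone 3 the difference over all clones was called (-1.20, adjusted p = 0.0414). Without the 3 libraries lacking mitochondrial values it was -0.58 in FOXP2 clones.

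Jun, the JUN subunit that activates its own gene through the site shown above, stood at 49.9, 55.3, 54.2 and 35.5 RPKM in FOXP2 clones 1 to 4. FOXP2-CPED1 clones 1 to 4 had 34.0, 38.5, 27.7 and 56.0 RPKM, against 62.8 in vector and 64.8 in parental cells. All 8 clones were below both controls, with FOXP2-CPED1 clone 4 the nearest to them. The log2 difference was -0.40 ± 0.26 with FOXP2 (adjusted p = 0.746) and -0.74 ± 0.26 with FOXP2-CPED1 (adjusted p = 0.504). Over all 8 clones it was -0.57 ± 0.24 (adjusted p = 0.514).

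The row that joins Junos, a noncoding gene that overlaps Jun on the opposite strand in GENCODE M21, and a 5S ribosomal RNA gene stood at 29.2 to 53.7 RPKM in FOXP2 clones and 22.7 to 38.1 in FOXP2-CPED1 clones, against 42.5 in vector and 47.9 in parental cells. Jun was 1.03 to 1.48 times this row in every library. The strand setting of the counting is not given, so reads of Jun and Junos cannot be told apart.

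Jund, the JUN subunit that is widely present in resting cells, varied least of the members among FOXP2 clones. It stood at 67.2, 78.9, 70.4 and 94.1 RPKM in FOXP2 clones 1 to 4. FOXP2-CPED1 clones 1 to 4 had 68.6, 82.9, 67.2 and 61.9 RPKM, against 72.1 in vector and 99.0 in parental cells. The clones lay around the vector library and below the parental one. Jund differed from the controls on the log2 scale by -0.13 ± 0.19 with FOXP2 (adjusted p = 0.896) and -0.27 ± 0.19 with FOXP2-CPED1 (adjusted p = 0.839). Without the parental library it was 0.09 with FOXP2 and 0.02 over all 8 clones.

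Atf3 had the widest spread between clones. It stood at 5.61, 8.48, 2.54 and 27.7 RPKM in FOXP2 clones 1 to 4. FOXP2-CPED1 clones 1 to 4 had 2.85, 2.01, 5.79 and 11.7 RPKM, against 14.8 in vector and 18.1 in parental cells. FOXP2 clone 4 was above both controls and the other 7 clones were below them. The highest FOXP2 clone was 10.9 times the lowest. The log2 difference was -0.96 ± 0.75 with FOXP2 (adjusted p = 0.809) and -1.63 ± 0.75 with FOXP2-CPED1 (adjusted p = 0.696). In FOXP2 clones it was -1.52 without clone 4, -0.51 without clone 3 and -1.85 without the 3 libraries lacking mitochondrial values.

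**Figure D2:**
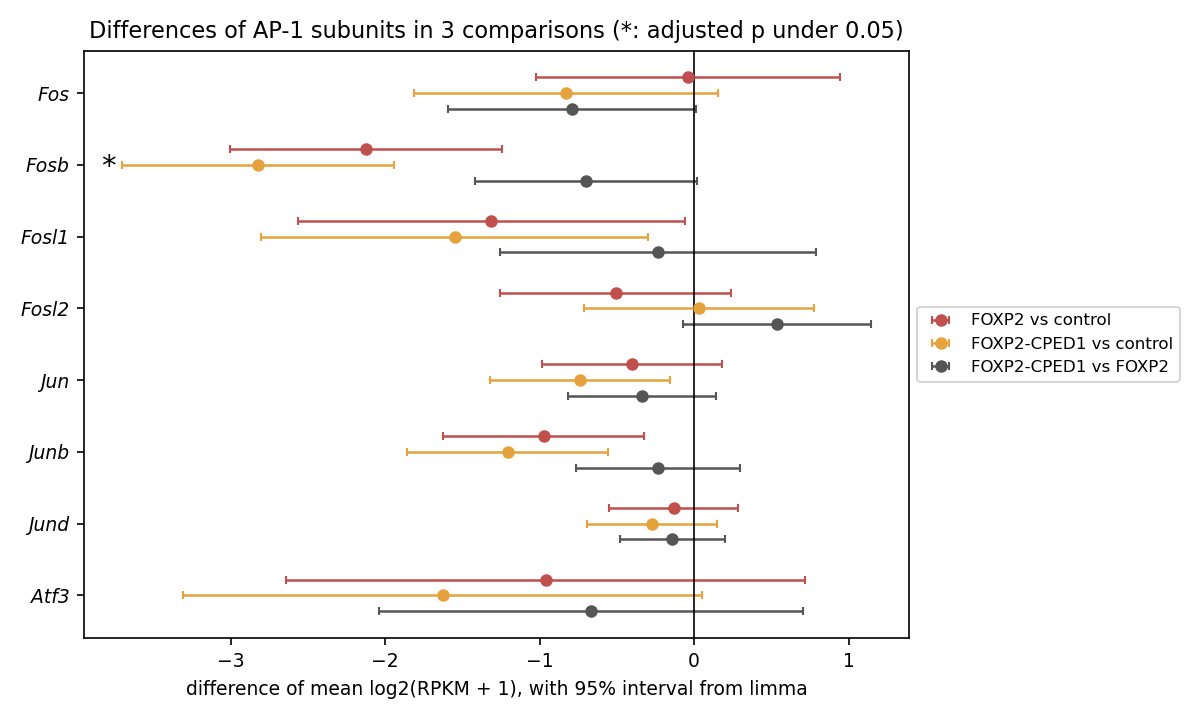
Differences in mean log2(RPKM + 1) of each AP-1 subunit, with 95% intervals from limma, for FOXP2 against control, FOXP2-CPED1 against control, and FOXP2-CPED1 against FOXP2. The asterisk marks an adjusted p under 0.05, reached by Fosb with FOXP2-CPED1; intervals of the differences from control lie below 0 for Fosb, Fosl1 and Junb with both constructs and for Jun with FOXP2-CPED1, and all intervals between the constructs include 0.

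With FOXP2 against the controls, 0 of 8 members passed the limma test, where 0.436% of all tested rows did. An unadjusted p under 0.05 was reached by 3 (Fosb, Junb and Fosl1), beside 8.52% of all tested rows. All 8 log2 differences were negative, beside 6117 of all 12842 tested rows, with a median of -0.73 beside 0.02 for all tested rows. Those of Fos (-0.04) and Jund (-0.13) were small and changed sign in some alternative fits. In 3 of 8 (Fosb, Jun and Junb) the clones did not overlap the controls and were lower, which held for 10.4% of all tested rows.

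With FOXP2-CPED1, 1 of 8 members fell, where 0.35% of all tested rows passed. An unadjusted p under 0.05 was reached by 4 members (Fosb, Junb, Jun and Fosl1), beside 7.28% of all rows. Of the 8 log2 differences 7 were negative, beside 6380 of all 12842 tested rows, with a median of -1.02 beside 0.00161 for all rows. In 6 of 8 (Fos, Fosb, Fosl1, Jun, Junb and Atf3) the clones were lower without overlap, which held for 13.3% of all rows. Over all 8 clones 1 of 8 members fell, beside 0.537% of rows, and the same 4 had an unadjusted p under 0.05, beside 9.1% of rows. Fosb, Jun and Junb were lower without overlap, beside 6.38% of rows. These comparisons share the same 2 control libraries, so they are not independent of each other. With limma's library quality weights 4 members passed with FOXP2, 6 with FOXP2-CPED1 and 5 over all 8 clones, in fits that called 2095, 929 and 1842 of all rows.

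Two-sided exact permutation tests of single members, unadjusted over 8 members and 4 comparisons, cannot go below p = 0.0667 with 4 clones against 2 controls. Fosb reached that value with each construct, and Junb and Fosl1 with FOXP2-CPED1. With 8 clones against 2 controls the smallest possible exact permutation p is 0.0222, which Fosb and Junb reached. There Fosl1 had an exact permutation p of 0.0667 and Jun one of 0.0889.

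Between the constructs no AP-1 member differed by the test, and the intervals are wide. In FOXP2-CPED1 against FOXP2 clones, 0 of 8 members passed limma, beside 0% of all tested rows. An unadjusted p under 0.05 was reached by 0 members, beside 2.16% of all rows. In 0 of 8 were the clones of the constructs without overlap, beside 1.38% of all rows. The log2 difference was -0.70 for Fosb (95% interval -1.42 to 0.02) and -0.79 for Fos (-1.60 to 0.02). It was 0.54 for Fosl2 (-0.07 to 1.15), the one member with a higher mean in FOXP2-CPED1 clones. For Jun it was -0.34 (-0.81 to 0.14), for Junb -0.23 (-0.76 to 0.30) and for Jund -0.14 (-0.48 to 0.20). For Fosl1 it was -0.24 (-1.26 to 0.79) and for Atf3 -0.67 (-2.04 to 0.71). All adjusted p-values from limma were 1. The smallest exact permutation p was 0.143 for Fosl2, where the design allows 0.0286.

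Since RPKM is per length, levels can be set side by side between genes. In the FOXP2 clones the order of means was Junb, Jund, Jun, Fosl1, Fosl2, Fos, Atf3 and Fosb, and every pair of neighbours but Jund and Jun overlapped in range. In the FOXP2-CPED1 clones it was Junb, Jund, Fosl2, Jun, Fosl1, Fos, Atf3 and Fosb. There Jund was above Fosl2, and Fosl1 above Fos, without overlap, and the other neighbours overlapped. In the controls the order was Junb, Jund, Fosl1, Jun, Fosl2, Fosb, Atf3 and Fos, with means of 213.5 RPKM for Junb and 14.2 for Fos. The ranges of Jund and Fosl1 overlapped there, and those of other neighbours did not, with 2 libraries each.

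By group means Fosb was thus the lowest member in both constructs, while 2 members were below it in the controls. Atf3 was below Fosb in FOXP2 clone 3 and in FOXP2-CPED1 clones 1 and 2. The share of Fosb in the summed FOS family RPKM (Fos, Fosb, Fosl1 and Fosl2) was 5.24 to 8.39% in FOXP2 clones and 2.05 to 5.15% in FOXP2-CPED1 clones. It was 17.7% in vector and 17.6% in parental cells. Fosl2 held 44.1 to 68.0% in FOXP2-CPED1 clones, against 30.4% in vector and 25.9% in parental cells. Fosl2 was the largest FOS family share in 7 of 8 clones. Fosl1 was the largest in FOXP2 clone 2 (66.7%) and in the controls (42.7% in vector, 48.0% in parental cells). These shares are descriptions of the values above and were not tested.

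The summed FOS family was 51.1 to 130.4 RPKM in FOXP2 clones and 75.9 to 88.7 in FOXP2-CPED1 clones, against 158.2 in vector and 164.3 in parental cells. The summed JUN family was 212.8 to 293.1 RPKM in FOXP2 clones and 178.2 to 241.7 in FOXP2-CPED1 clones, against 337.4 in vector and 388.3 in parental cells. JUN over FOS was 1.74 to 4.16 in FOXP2 clones and 2.05 to 2.99 in FOXP2-CPED1 clones, against 2.13 in vector and 2.36 in parental cells. Junb was 37.5 to 57.5% of the JUN sum in the 8 clones, against 60.0% in vector and 57.8% in parental cells.

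**Figure D3:**
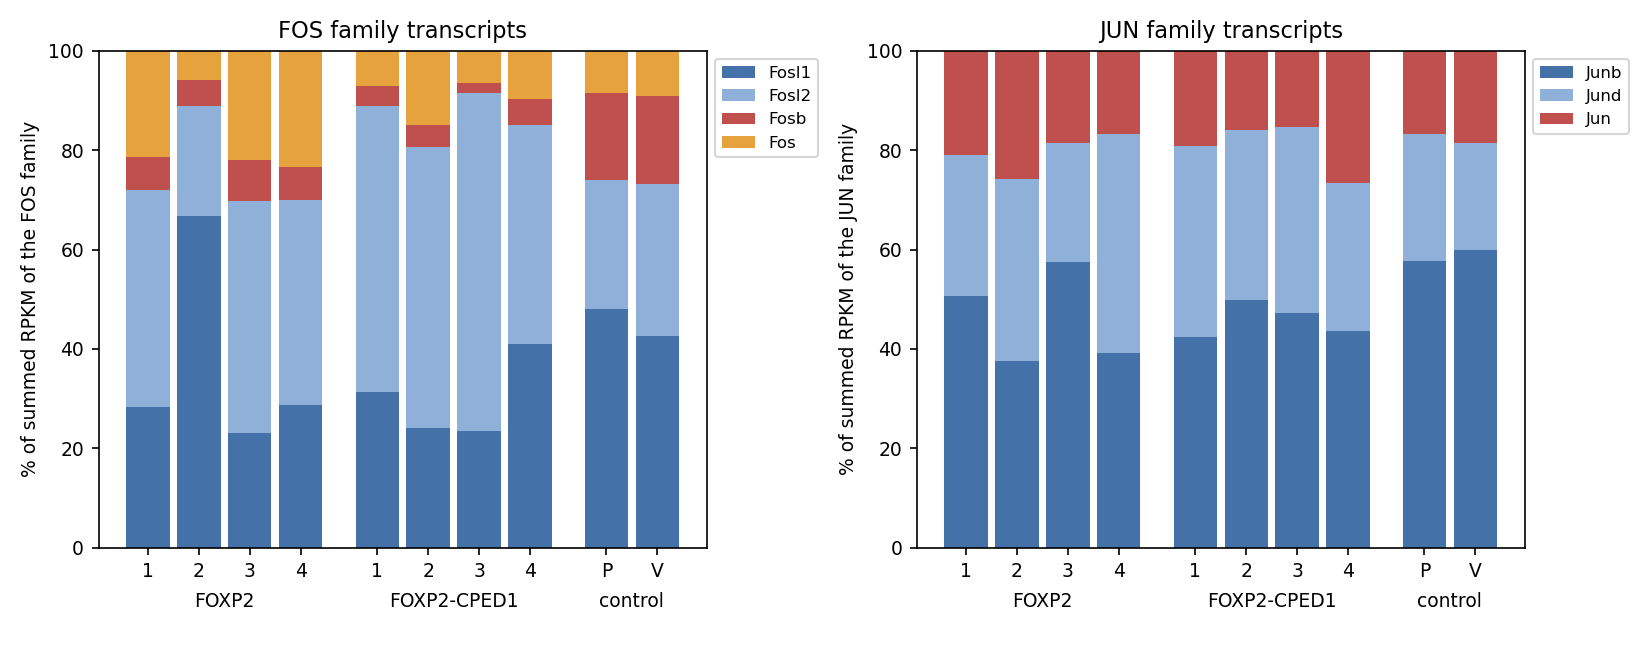
Share of each gene in the summed RPKM of the FOS family (left) and the JUN family (right) in every library, with clone numbers under the bars, P for parent and V for vector. Fosb takes 2.05 to 8.39% of the FOS family in the clones and 17.6 to 17.7% in the controls.

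Pairs of members showed no common sign of correlation between clones, and 8 clones can show only strong correlations. Of 28 pairs of members, 14 had a positive Pearson's r over the 8 clones, on log2(RPKM + 1). Exact permutation tests gave 4 pairs with an unadjusted p under 0.05 and 0 after Benjamini-Hochberg adjustment over the 28 pairs (smallest adjusted p = 0.0638). The 3 pairs with the smallest p were Fosb with Jun, Fos with Junb, and Fosl2 with Atf3. The clones of the constructs were pooled, and r was also computed after centring each construct on its mean.

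Fos and Junb had r = 0.889 over the 8 clones (exact permutation p = 0.00456, adjusted p = 0.0638) and a Spearman's rho of 0.81 (exact permutation p = 0.0218, adjusted p = 0.203). Without the 2 clones farthest from the median of Fos r was 0.803, and after centring it was 0.912. Fosb and Jun had r = 0.827 (exact permutation p = 0.00375, adjusted p = 0.0638) and rho = 0.881 (exact permutation p = 0.00724, adjusted p = 0.203). Without the 2 clones farthest in Fosb r was 0.831, and after centring it was 0.768. Fosl2 and Atf3 ran opposite to each other, with r = -0.785 (exact permutation p = 0.0205, adjusted p = 0.191) and rho = -0.667 (exact permutation p = 0.0831, adjusted p = 0.465). Without the 2 clones farthest in Fosl2 r was -0.486. The fourth pair, Fos with Fosb, had r = 0.742 (exact permutation p = 0.0432, adjusted p = 0.302) and rho = 0.548 (exact permutation p = 0.171, adjusted p = 0.798). It rests on the 2 clones farthest in Fos, without which r was -0.327.

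**Figure D4:**
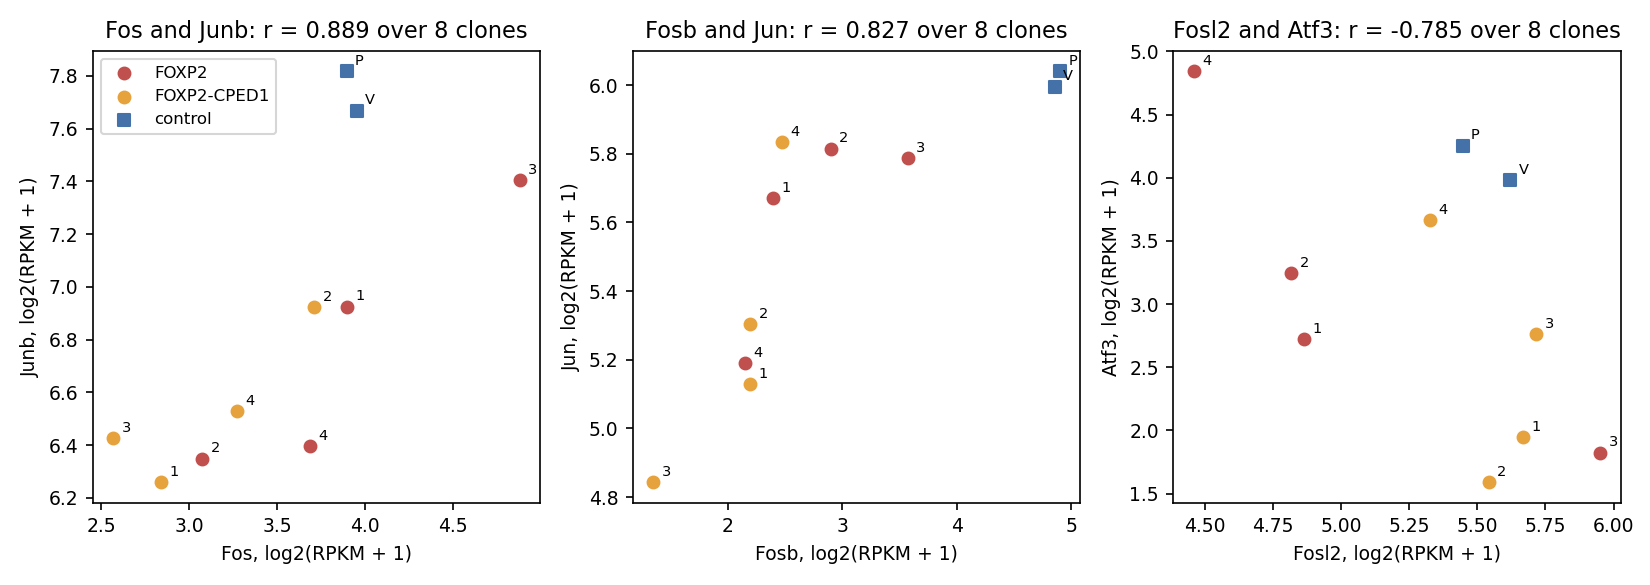
Levels of pairs of AP-1 subunits on the log2(RPKM + 1) scale, each point a library, for Fos and Junb, Fosb and Jun, and Fosl2 and Atf3. FOXP2 clone 3 is highest in Fos and in Junb among the clones, FOXP2-CPED1 clone 3 is lowest in Fosb and in Jun, and the controls (squares) were not used for r.

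Genes most like Fos, Fosl1 and Jun over the 8 clones were ranked by Pearson's r among 10054 other genes, as a description. The nearest to Fos were the lipid kinase gene Pi4kb (r = 0.975), the phosphatase subunit gene Ppp2r5b (0.934) and the DNA polymerase gene Poli (0.899). Among the nearest to Fosl1 were the nuclear protein gene Csrnp1 (0.98) and the COP9 signalosome gene Cops4 (0.976). Csrnp1 ran from 1.86 to 11.5 RPKM over the clones, against 10.1 in vector and 11.3 in parental cells. The nearest to Jun were the flippase gene Atp10d (0.939), the DNA repair gene Mutyh (0.933) and Ier3, an immediate-early gene (0.928). All these values come from the same 8 libraries.

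The other genes of the pathway were followed in 4 lists. Of 21 upstream kinases and SRF factors, 16 had a row of their own and were tested. Srf, which encodes the factor that binds the serum response elements of Fos and other immediate-early genes, fell with both constructs, and 0 rose. It was the 1 gene of 16 called with FOXP2, FOXP2-CPED1 and over all 8 clones, beside 0.436%, 0.35% and 0.537% of all rows. An unadjusted limma p under 0.05 was reached by 2 with FOXP2 and 2 over all 8 clones, beside 8.52% and 9.1% of all rows. With FOXP2-CPED1 it was reached by 1, beside 7.28%. Srf stood at 11.1, 17.2, 11.4 and 12.4 RPKM in FOXP2 clones 1 to 4 and at 13.0, 11.5, 10.1 and 14.8 RPKM in FOXP2-CPED1 clones 1 to 4. The vector library had 50.4 and the parental library 56.5 RPKM. Every clone was below both controls. Srf differed from the controls on the log2 scale by -1.98 ± 0.20 with FOXP2 (limma adjusted p = 0.00289), -2.04 ± 0.20 with FOXP2-CPED1 (adjusted p = 0.00594) and -2.01 ± 0.18 over all 8 clones (adjusted p = 0.00142). Over all 8 clones the call was lost without either control, as were nearly all calls in the table. The log2 difference of Srf was then -1.93 without the parental library and -2.09 without the vector library. The list's median was -0.00562 with FOXP2 and 0.00924 with FOXP2-CPED1, near that of all rows, and 15 of its 16 genes did not pass in any comparison.

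Of 17 other AP-1 and leucine zipper partners, 11 were tested and 0 passed limma in any comparison. An unadjusted p under 0.05 was reached by 1 with FOXP2 (8.52% of all rows), 1 with FOXP2-CPED1 (7.28%) and 2 over all 8 clones (9.1%). Their medians were -0.12 with FOXP2 and -0.09 with FOXP2-CPED1. The smallest p-values were those of Nfe2l2, the NRF2 factor, and of Maff, a small MAF protein. Nfe2l2 stood at 51.6 ± 2.27 RPKM in FOXP2 and 51.7 ± 1.31 in FOXP2-CPED1 clones (n = 4 each), against 63.1 ± 0.371 in the controls (n = 2; adjusted p = 0.389 over all 8 clones). Maff stood at 14.4 ± 9.54 RPKM in FOXP2 and 13.0 ± 0.75 in FOXP2-CPED1 clones, against 23.2 ± 3.42 in the controls (adjusted p = 0.545 over all 8 clones). Without FOXP2 clone 2, which had 28.4 RPKM, Maff was called over all clones (log2 difference -0.98, adjusted p = 0.0406).

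Of 22 genes reported elsewhere as AP-1 targets, 17 were tested, and the metalloproteinase genes Mmp3, Mmp9, Mmp10 and Mmp13 had no row. Plau, the urokinase plasminogen activator, fell with FOXP2 and over all 8 clones, and 0 of the list rose. It stood at 2.84 to 6.63 RPKM in FOXP2 clones and 4.60 to 17.9 in FOXP2-CPED1 clones, against 32.6 in vector and 31.6 in parental cells. Its log2 difference was -2.68 ± 0.46 with FOXP2 (limma adjusted p = 0.0401). The call was lost when any single clone other than FOXP2-CPED1 clone 4 was left out (adjusted p = 0.0515 to 0.11). It was lost too without the 3 libraries lacking mitochondrial values (0.178). Without either control it was lost as well, with log2 differences of -2.70 (parental left out) and -2.66 (vector left out). It was also lost with a pseudocount of 0.1 (adjusted p = 0.0546) or 0.25 (0.053). With FOXP2-CPED1 the adjusted p was 0.142. The list's median was -0.32 with FOXP2 and -0.17 with FOXP2-CPED1. Limma called 1 of 17 with FOXP2, 0 with FOXP2-CPED1 and 1 over all 8 clones, beside 0.436%, 0.35% and 0.537% of all rows. An unadjusted limma p under 0.05 was reached by 5, 4 and 4, beside 8.52%, 7.28% and 9.1%.

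Other serum-induced immediate-early genes, on a list chosen with earlier results of these libraries known, fell in part. All 13 were tested, and 0 rose. With FOXP2 3 fell, where 0.436% of all tested rows passed limma. With FOXP2-CPED1 4 fell, beside 0.35% of rows, and over all 8 clones 5 fell, beside 0.537%. An unadjusted limma p under 0.05 was reached by 10 in each of these comparisons, beside 8.52%, 7.28% and 9.1% of rows. The list's medians were -0.94 with FOXP2 and -1.25 with FOXP2-CPED1. Egr1, a zinc finger factor, fell to 25.8, 40.1, 18.3 and 34.7 RPKM in FOXP2-CPED1 clones 1 to 4, against 179.6 in vector and 174.3 in parental cells (limma adjusted p = 0.0247). That call was lost without FOXP2-CPED1 clones 1 (adjusted p = 0.0809), 2 (0.0524) or 3 (0.0638). It was also lost without the vector library (log2 difference -2.57) or the parental library (-2.61). Egr2, Egr3 and Nr4a1 fell with both constructs. With FOXP2-CPED1 Egr2 had a mean of 3.73 RPKM against 47.4 in the controls (limma adjusted p = 0.00828). Over all 8 clones Egr3 had a mean of 4.25 RPKM against 51.9 (limma adjusted p = 0.0174). Nr4a1 had 29.6 against 315.8 there (limma adjusted p = 0.0108). These 3 calls held when any single clone was left out, with adjusted p up to 0.0344, 0.0431 and 0.0275. Without either control they were lost, as were nearly all calls in the table. Without the parental library the log2 difference was -3.48 for Egr2 with FOXP2-CPED1, and over all 8 clones -3.61 for Egr3 and -3.58 for Nr4a1. Without the vector library the same differences were -3.36 for Egr2, -3.46 for Egr3 and -3.60 for Nr4a1. Cyr61, a matricellular protein gene named after its values were seen, fell over all 8 clones (adjusted p = 0.0447).

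Between the controls, which had 1 library each and were not tested, the members were close. Vector over parental cells ran from 0.728 for Jund to 1.13 for Fosl2, and was 0.97 for Fosb, 0.97 for Jun and 0.902 for Junb.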

How the data were processed

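Per the labels' protocols, Trizol was used for extraction and 1 µg of RNA went into each library. The authors deposited 1 table of RPKM values for the 10 libraries. HISAT2, StringTie and the mm9 genome are named in the submitters' processing notes; the sources used here do not give versions, annotation, strand setting or filters. Of 18430 rows, 3581 name no gene (3.37 to 4.54% of a library's summed RPKM) and were left out.

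Values were transformed as log2(RPKM + 1). Rows that named a gene and reached 1 RPKM in 2 libraries (12842) were fitted in 1 linear model with 3 arms (FOXP2, FOXP2-CPED1 and control) with limma 3.58.1 in R 4.3.3. Moderation used a trend on the mean, p-values were Benjamini-Hochberg adjusted over all rows within a comparison, and the threshold was 0.05. The fit was tested on simulated data with normal noise of the same spread in all groups. That test does not cover genes whose 2 controls vary less than the clones, as for Fosb. Count models were not applied to RPKM. Permutation tests used scipy 1.17.1. A p-value here reflects only the variation among these cultures.

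The members, lists, comparisons and alternatives were chosen with earlier results of these data known. The CRE core and the Jun site were added to the motifs after the sequences were seen. All members are named; from each list, up to 4 members past the threshold by smallest p, or the 2 with the smallest p where none passed. The 3 genes most like Fos, Fosl1 and Jun by Pearson's r are named, except 1 that is not reported here. Of listed genes without a row of their own, 7 lie in rows that join several genes and were not used. Alternatives were other pseudocounts, filters, scalings, moderation and weights, fits of only the arms compared, clone number as a block, rows of a symbol summed, and libraries left out.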

Additional observations from a re-analysis of the deposited data

How the results depend on the processing

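The number of AP-1 members called was 0 with FOXP2, 1 with FOXP2-CPED1, 0 between the constructs and 1 over all 8 clones. With library quality weights it was 4 with FOXP2, 6 with FOXP2-CPED1, 0 between the constructs and 5 over all 8 clones. Calls over all genes were then 2095 with FOXP2, 929 with FOXP2-CPED1, 4 between the constructs and 1842 over all 8 clones, where the reported fit had 56, 45, 0 and 69. Over all genes a pseudocount of 0.1 gave 37 calls with FOXP2 and 28 with FOXP2-CPED1, a fit of only the arms compared gave 9 with FOXP2, and leaving out the libraries lacking mitochondrial values gave 23 with FOXP2.

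Leaving out each library in turn gave 0 to 1 members called with FOXP2, 0 to 1 with FOXP2-CPED1, 0 between constructs and 0 to 2 over all 8 clones. Over all genes it gave 2 to 64 calls with FOXP2, 0 to 57 with FOXP2-CPED1, 0 to 1 between constructs and 2 to 82 over all 8 clones. A clone left out leaves 3 in its arm, and a control left out leaves 1, which is then assumed to vary like the clones.

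Of 672 alternative values of the members' log2 differences, 15 had the opposite sign, none of a called difference; the cause was not tested. In the leave-one-out fits, Fos with FOXP2 lay between -0.37 and 0.23 (0.024 without FOXP2 clone 4), Jund with FOXP2 between -0.36 and 0.093, and Jund over all 8 clones between -0.43 and 0.023. Fosl2 with FOXP2-CPED1 lay between -0.056 and 0.12 (-0.0046 and -0.021 without FOXP2-CPED1 clones 1 and 3), and Fosl1 between the constructs lay between -0.54 and 0.26. Without the libraries lacking mitochondrial values, Fos with FOXP2 was 0.46 and Fosl2 with FOXP2-CPED1 -0.021, and between the constructs Fosl1 was 0.19, Jund 0.037 and Atf3 0.13. With quality weights Fosl1 was 0.15 and Jund 0.024 between the constructs.

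With clone number as a replicate block, 0 members and 0 genes were called between the constructs. Deviations of same-numbered clones correlated at -0.04, -0.24, 0.28 and 0.17, within the range of differently numbered clones (-0.43 to 0.39). No pairing by number was thus seen, which so few clones cannot exclude, and the controls carry no number. The absolute depth of these RPKM values is unknown, which limits what can be said of the lowest levels.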
